A study of Chlamydomonas reinhardtii with 45 samples.

Results

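The transition from day to night in high light was followed in 6 of the 45 RNA libraries of a diurnal study of the green alga *Chlamydomonas reinhardtii*. These were the 3 libraries of the High Light (HL) population at the −10 timepoint, 2 h into the dark at 18 °C, and the 3 HL libraries at the +10 timepoint, in the light at 28 °C. The study acclimated populations of strain CC-5390 to Low, Medium, or High Light (LL, ML, and HL at 50, 200, and 1000 PFD, the photon flux density) and sampled poly(A) RNA at 5 timepoints of a day, in 3 experimental replicates. All groups shared the strain, labelled wild type, a cell wall-reduced *cw15* line carrying a cosmid with the *ARG7* gene, and grew without added carbon source in photobioreactors lit by red and blue LEDs, with 12 h of light at 28 °C and 12 h of darkness at 18 °C. The libraries were chosen by the labels alone. Between +10 and −10, the light, the temperature, and the time of day changed together, and their parts in any difference cannot be told apart. The replicates came from separate cultures run in different weeks. In each run the density of a culture was set once, as the preceding night began, and was then left to change without fresh medium. The population was sampled in bulk, so a change in the mixture of cells and a change of mRNA per cell cannot be told apart either.

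A *Chlamydomonas* cell under a day and night cycle grows in the light, replicates its DNA and divides by multiple fission around nightfall, and rebuilds its cilia as daughter cells. Photosynthetic proteins, pigments, and the carbon-concentrating mechanism (CCM), which pumps inorganic carbon to Rubisco, are used in the light. In the dark, starch and lipid reserves feed respiration, and in cells short of oxygen fermentation.

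Each value is an FPKM, the number of fragments per kilobase of transcript, scaled to the mapped fragments of the library, so a level is relative to the rest of its library. Of 17609 genes in the table, 874 were at 0 in every library, and the 14602 with at least 1 FPKM in at least 3 of the 45 libraries were tested. Between 15371 and 15681 genes were above 0 in each of the 6 libraries. The relative sequencing depths of the 6 libraries were inferred from the most common ratio of their low FPKM values to those of replicate 1 at +10. They were within a range of 0.888 to 1.02. Only 6.42% to 9.76% of the pairs of low values lay at that ratio, so the estimate is rough. Replicates correlated with r of 0.991 to 0.992 at −10 and 0.992 to 0.994 at +10. The FPKM of a library summed to between 516214 and 522039 at −10, against 460506 to 465509 at +10, and the 74 cytosolic ribosomal protein mRNAs held 33.4% to 33.7% of it at −10, against 22.5% to 22.6% at +10. In the ML population, replicate 3 stood apart, with r of 0.978 and 0.980 to the others at −10, where these correlated with 0.993, and 0.982 and 0.986 at +10, where these correlated with 0.995. Results that rest on ML are therefore also given without that replicate.

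At dusk in HL, 1964 mRNAs were significantly increased and 3330 were significantly decreased among the 14602 tested, which is 13.5% and 22.8%. A change was called where limma gave an adjusted p below 0.01 and a log2 fold change beyond 1 in either direction, on log2(FPKM + 1), a scale that understates the change of mRNAs with low FPKM. A value after ± beside a log2 fold change is the SE of the fit. With the values as deposited, the only scaling at which these sizes were compared, the decreases were the larger changes. Their median was −1.81 on the log2 scale, and 522 exceeded 8-fold, while the median of the increases was 1.43 and 106 exceeded 8-fold. The 3 libraries at −10 lay outside the range of those at +10 for 1962 of the increased and 3327 of the decreased mRNAs. That separation was common among all tested mRNAs, with 38.1% entirely higher and 42.8% entirely lower at −10. Genes with a symbol gave 601 of the increased and 1033 of the decreased mRNAs, beside 4063 of the 14602 tested.

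The balance of increases and decreases depended on how the libraries were scaled. Of the calls, 37.1% were increases with the values as deposited, 52.8% after the medians of the libraries were equalized (2971 increases and 2651 decreases), 50.4% after quantile normalization, and 30.6% after every library was scaled to the same FPKM sum. The median log2 fold change of all tested mRNAs was −0.05 as deposited, and these scalings shifted it by 0.26, 0.22, and −0.13. All 1964 increases remained called after median scaling, and all 3330 decreases remained called after scaling to the same sum. Gene groups with changes close to a log2 of 1 are therefore described with their counts under these scalings.

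**Figure D1:**
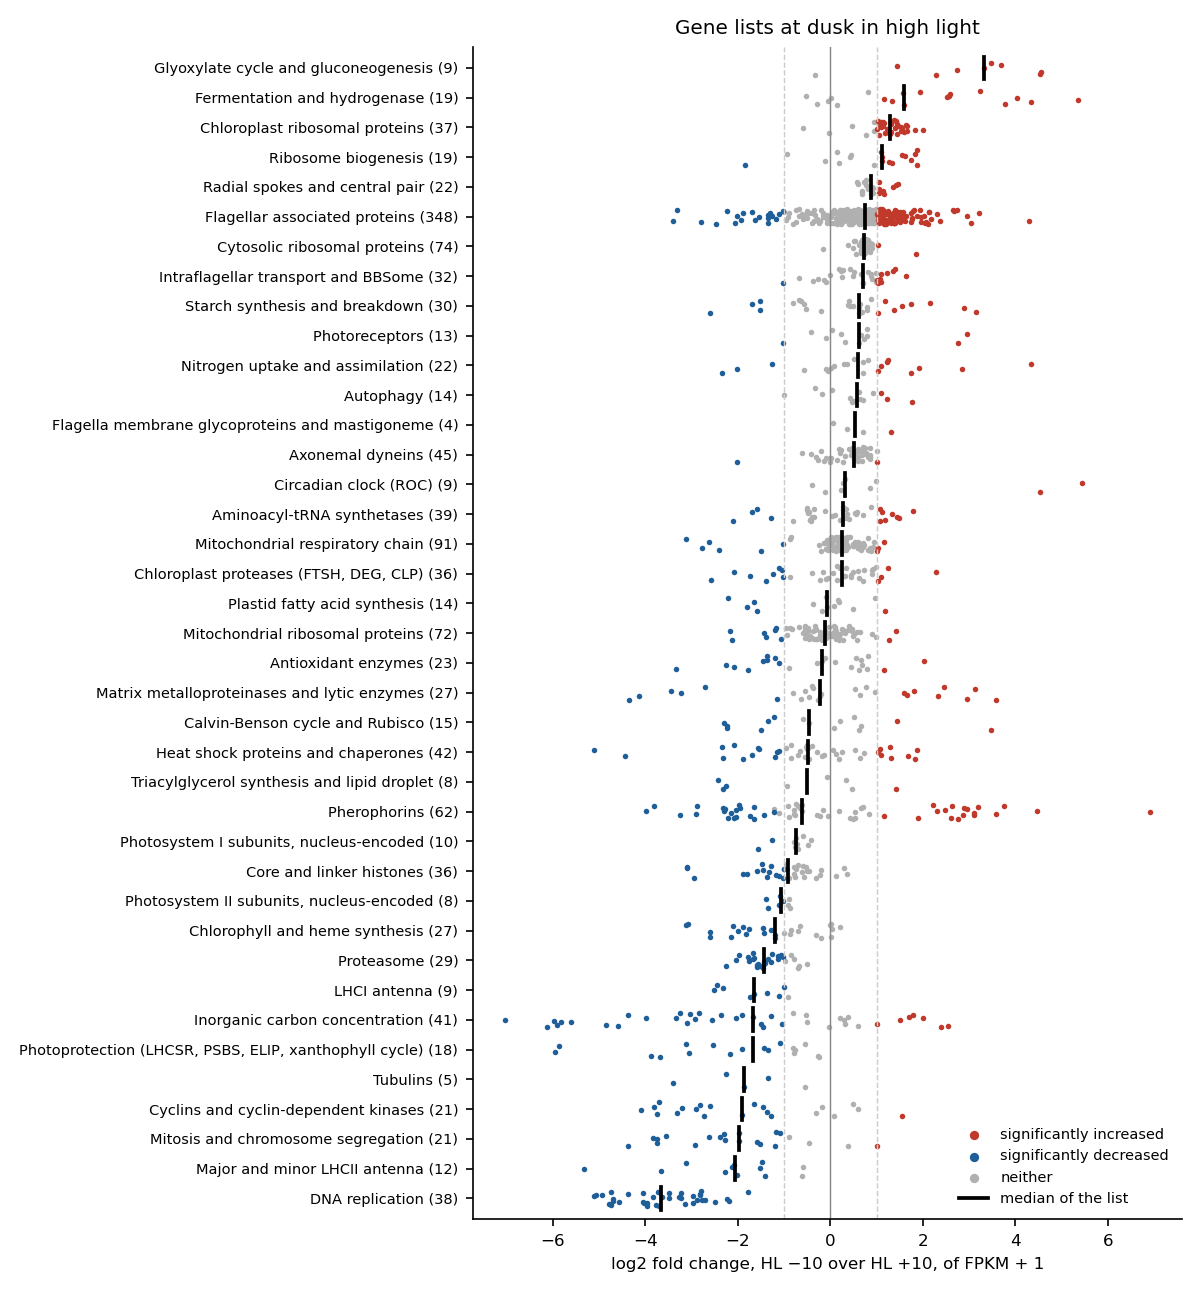
Log2 fold change at dusk (HL −10 over HL +10) of each tested member of 39 gene lists. Each point is a gene, red where significantly increased, blue where significantly decreased, and grey where neither, black bars are list medians, dashed lines mark a log2 of 1 and −1, and the number of tested members is in parentheses. The list of DNA replication lies entirely to the left, with a median of −3.67, and the list of the glyoxylate cycle and gluconeogenesis lies furthest to the right, with a median of 3.32.

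Division genes were at a high level at +10 and had lost most of it 2 h into the night. All 38 mRNAs of DNA replication were significantly decreased, with a median log2 fold change of −3.67 and a range of −5.10 to −1.79. Together they summed to 56.2 to 81.6 FPKM at −10, against 1845 to 1929 FPKM at +10. *MCM2* and *MCM3* encode subunits of the replicative helicase. *MCM2* had 0.780, 0.752 and 1.65 FPKM at −10, against 67.8, 67.03 and 67.3 FPKM at +10, and its log2 fold change was −5.08 ± 0.26 (SE, adjusted p = 1.02e-18). *MCM3* had the largest decrease of the list, with 1.65, 1.17 and 1.33 FPKM at −10, against 77.4, 86.1 and 79.3 FPKM at +10. For both genes, the 3 libraries at −10 lay at or below 1.65 FPKM, far from those at +10. *PCN1*, the sliding clamp of DNA polymerase, had 9.05, 7.15 and 12.9 FPKM at −10, against 266, 283 and 263 FPKM at +10 (−4.70 ± 0.28), and *RIR2*, the small subunit of ribonucleotide reductase, had 10.9, 7.58 and 14.4 FPKM at −10, against 299, 314 and 318 FPKM at +10 (−4.74 ± 0.32). These retained more mRNA than the helicase genes. *POLA1*, the catalytic subunit of DNA polymerase alpha, was lower in level throughout, with 0.545, 0.277 and 0.663 FPKM at −10, against 18.4, 19.8 and 18.2 FPKM at +10 (−3.74 ± 0.20).

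Of 21 mRNAs for cyclins, cyclin-dependent kinases, and their regulators, 15 were significantly decreased and 1 was increased. *CDKB1*, the mitotic kinase of the plant type, had 12.5, 9.07 and 16.6 FPKM at −10, against 177, 183 and 178 FPKM at +10 (−3.75 ± 0.30, adjusted p = 2.65e-13). *CDKA1*, the kinase that acts at entry into division, fell the most of the list (−4.10 ± 0.19). The mitotic cyclin genes fell as well. *CYCB1* had 61.6, 45.98 and 67.5 FPKM at −10, against 521, 573 and 542 FPKM at +10 (−3.22 ± 0.35), and *CYCA1* had 16.2, 10.9 and 18.7 FPKM at −10, against 152, 159.9 and 164 FPKM at +10 (−3.33 ± 0.37). In both, replicate 2 was the lowest at −10, and the groups did not overlap. The increased member was *CDK1*, with 3.46, 2.76 and 2.22 FPKM at −10, against 0.260, 0.355 and 0.287 FPKM at +10 (1.54 ± 0.10), a kinase gene that stayed low at both times. Among 21 mRNAs of mitosis and chromosome segregation, 17 were decreased and 1 was increased. *TOP2*, DNA topoisomerase II, had 6.30, 3.82 and 8.87 FPKM at −10, against 145, 150.4 and 141 FPKM at +10 (−4.38 ± 0.33), and *CDC20*, the activator of the anaphase-promoting complex, had 4.06, 3.21 and 5.18 FPKM at −10, against 57.4, 61.2 and 57.6 FPKM at +10 (−3.55 ± 0.28). The increased member was *ALK1*, an Aurora-like kinase, at 1.01 ± 0.10, a call that was lost without replicate 1 or 3 at −10 (0.99 and 0.998), without replicate 1 at +10 (0.94), and after scaling to the same FPKM sum (0.86).

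The genes that package and move chromosomes followed the same direction with smaller changes. Of 36 tested histone mRNAs, of 121 in the annotation, 16 were decreased and none was increased, with a median of −0.92. Replication-dependent histone mRNAs lack a poly(A) tail in *Chlamydomonas* and come from near-identical genes, so their values in these libraries are uncertain. The linker histone *HON3* had 3.04, 3.14 and 5.56 FPKM at −10, against 36.4, 45.7 and 38.3 FPKM at +10 (−3.10 ± 0.27). All 5 tubulin mRNAs were lower at −10, 4 of them significantly. *TUA1*, alpha tubulin, had 624, 598 and 715 FPKM at −10, against 2278, 2415 and 2323 FPKM at +10 (−1.86 ± 0.18), and *TUB2*, beta tubulin, had 319.9, 284 and 365 FPKM at −10, against 1481, 1585 and 1590.4 FPKM at +10 (−2.27 ± 0.20). Tubulin gene pairs are nearly identical in coding sequence, so the split between copies is uncertain. *TUG1*, gamma tubulin, which nucleates microtubules, fell the most (−3.41 ± 0.16), and *TUB1* was at −0.56 and was not called.

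**Figure D2:**
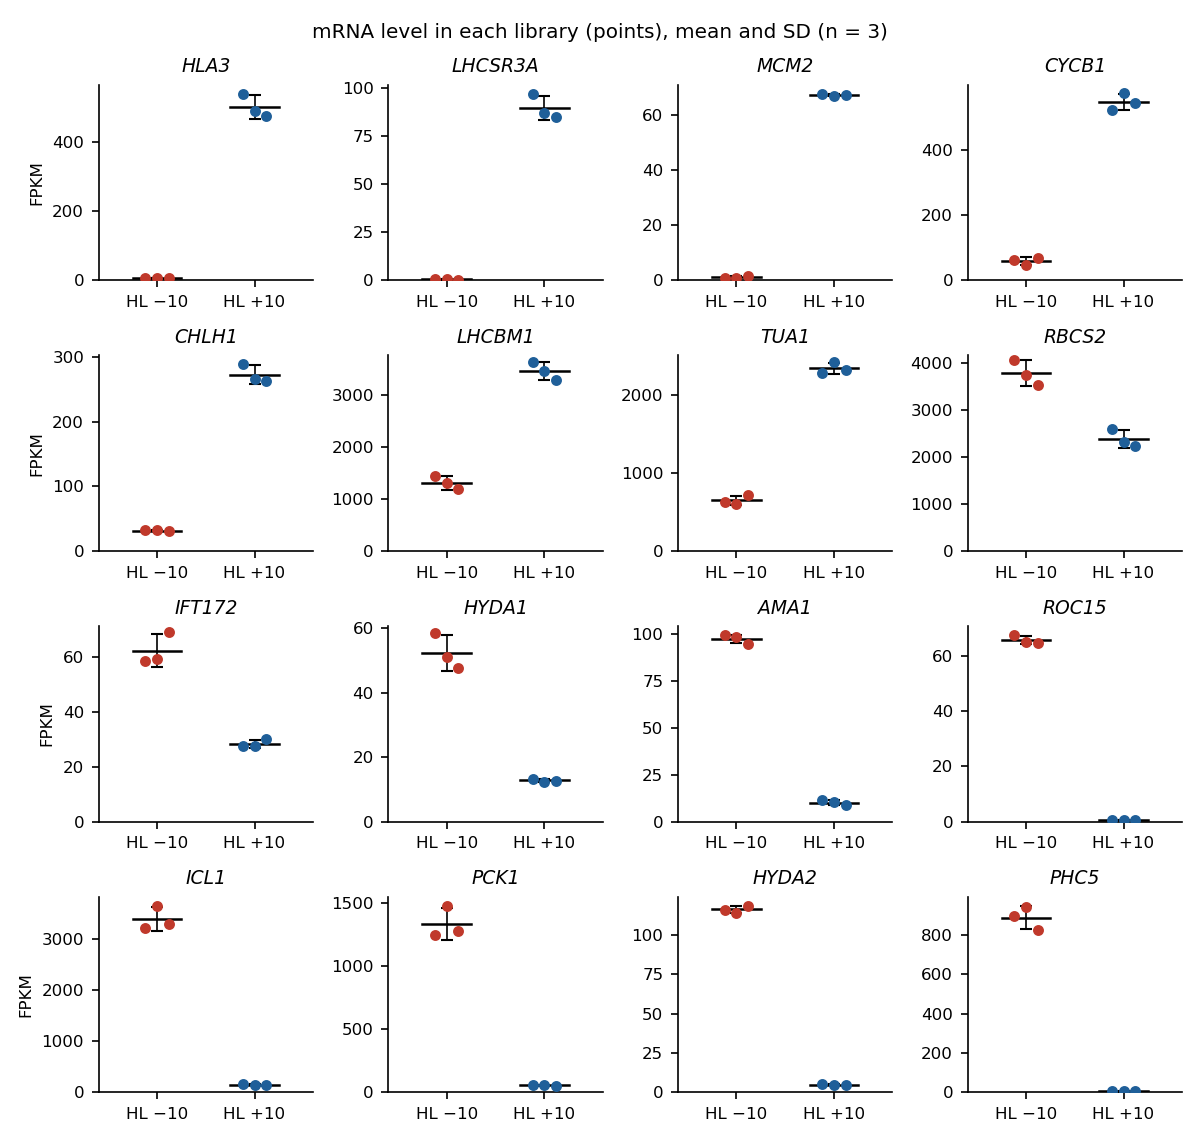
FPKM of 16 mRNAs in each of the 3 libraries at HL −10 (left, red) and HL +10 (right, blue), with a linear axis from 0 for each gene, horizontal bars at the mean, and error bars of 1 SD (n = 3). *HLA3*, *LHCSR3A*, *MCM2*, *CYCB1*, *CHLH1*, *LHCBM1*, and *TUA1* are lower and the other 9 are higher at −10, and in none of the 16 do the libraries of the groups overlap.

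Light-harvesting mRNAs fell while those of nucleus-encoded photosystem subunits fell less. Of 12 mRNAs of the LHCII antenna of photosystem II, 10 were decreased (median −2.06), and of 9 mRNAs of the LHCI antenna of photosystem I, 8 were decreased (median −1.65). Summed over the LHCII list, the level was 3329 to 4002 FPKM at −10, against 12227 to 12992 FPKM at +10. *LHCBM1*, a major antenna protein with a part in energy dissipation, had 1448, 1306 and 1187 FPKM at −10, against 3649, 3472 and 3304 FPKM at +10 (−1.41 ± 0.14, adjusted p = 6.69e-11). *LHCBM4* had the largest decrease of the list, with 4.11, 3.44 and 3.001 FPKM at −10, against 201, 178 and 165 FPKM at +10 (−5.34 ± 0.22). The decreases thus spanned a wide range within 1 family, with *LHCBM6* at −0.59 ± 0.15 and *LHCBM9* at −0.61 ± 1.00, neither of which was called. *LHCBM9*, an antenna gene known from nutrient stress, had 598, 482 and 639 FPKM at −10, against 741, 820.2 and 1089 FPKM at +10. Near-identical copies such as *LHCBM2* and *LHCBM7* share reads, so their separate values are uncertain. In the LHCI list, *LHCA9* was not called (−0.91 ± 0.10) as deposited but was after quantile normalization (−1.09) and scaling to the same FPKM sum (−1.07). *LHCA4* fell the most, with 116, 88.03 and 83.95 FPKM at −10, against 582, 544 and 529.9 FPKM at +10 (−2.53 ± 0.14), and *LHCA1* had 249.7, 209 and 187 FPKM at −10, against 713, 661 and 645 FPKM at +10 (−1.65 ± 0.14).

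Of 8 nucleus-encoded mRNAs of photosystem II, 5 were decreased (median −1.06). Of 10 such mRNAs of photosystem I, 2 were decreased (median −0.74), a share near the 22.8% of all tested mRNAs. After median scaling, 2 and 1 remained called. *PSBR1*, a small subunit near the oxygen-evolving complex, had 1463, 1304 and 1210.1 FPKM at −10, against 3577, 3482 and 3328 FPKM at +10 (−1.39 ± 0.12), and *PSBO1*, which stabilizes the manganese cluster, had 643, 559 and 548 FPKM at −10, against 1274, 1224 and 1218 FPKM at +10 (−1.09 ± 0.10). The other decreases were *PSBX1* (−1.35 ± 0.10), *PSBQ1* (−1.11 ± 0.13), and *PSBP3* (−1.03 ± 0.13). The calls for *PSBO1*, *PSBQ1*, and *PSBP3* were lost after median scaling (−0.83, −0.85, and −0.77), and that for *PSBP3* also without replicate 3 at −10 (−0.98). The photosystem I decreases were *PSAN1*, with 163, 133 and 132 FPKM at −10, against 440.3, 436 and 394 FPKM at +10 (−1.57 ± 0.12), and *PSAH1* (−1.26 ± 0.11), at −0.999 and not called after median scaling. *PSAD1*, on the stromal ridge where ferredoxin docks, was at −0.42 ± 0.07 and kept most of its level. *STT7*, the kinase of state transitions, had 3.48, 2.25 and 2.78 FPKM at −10, against 13.1, 10.5 and 10.5 FPKM at +10 (−1.70 ± 0.10).

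Chlorophyll and heme synthesis had 15 decreased and no increased mRNAs among 27 (median −1.19). *CHLH1*, the large subunit of magnesium chelatase, had 32.2, 32.00 and 30.4 FPKM at −10, against 290.0, 266 and 262 FPKM at +10 (−3.07 ± 0.10, adjusted p = 1.52e-24). *CHLP1*, which reduces the geranylgeranyl tail to phytol, had 33.1, 29.8 and 23.1 FPKM at −10, against 275, 244 and 244 FPKM at +10 (−3.12 ± 0.13). *GSA1*, at the entry into tetrapyrrole synthesis, was already low at +10, with 5.35, 5.39 and 4.48 FPKM at −10, against 24.9, 18.7 and 20.7 FPKM at +10 (−1.88 ± 0.14). Its HL means at −2, +2, and +6 were 57.8, 527 and 233 FPKM.

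The Calvin-Benson cycle had 6 decreased and 2 increased mRNAs of 15 (median −0.46), beside 22.8% and 13.5% of all tested mRNAs. The share of increases was thus near that of all tested mRNAs. *PRK1*, phosphoribulokinase, had 77.1, 52.8 and 48.3 FPKM at −10, against 306, 265 and 261 FPKM at +10 (−2.23 ± 0.15), and *PGK1*, chloroplast phosphoglycerate kinase, had 27.4, 24.9 and 23.1 FPKM at −10, against 145, 114 and 127 FPKM at +10 (−2.31 ± 0.12). The small subunit genes of Rubisco moved apart, with *RBCS1* at −1.34 ± 0.10 and *RBCS2* higher at −10 but not called, at 4068, 3744 and 3528 FPKM at −10, against 2585, 2311 and 2228 FPKM at +10 (0.67 ± 0.10). These 2 genes are close copies, and reads may be shared between them. The increased members were *RPE1* (1.43 ± 0.11), ribulose phosphate epimerase, and *FBP1* (3.48 ± 0.30). *FBP1* is annotated as a Type II fructose bisphosphatase and had 466, 589 and 494 FPKM at −10, against 47.2, 44.5 and 43.8 FPKM at +10.

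Photoprotection mRNAs included some of the largest decreases. Of 18 tested, 12 were decreased and none was increased (median −1.68). *LHCSR3A* and *LHCSR3B* encode the stress-related antenna protein through which excess excitation is dissipated in *Chlamydomonas*. *LHCSR3A* had 0.550, 0.466 and 0.324 FPKM at −10, against 96.8, 86.7 and 84.8 FPKM at +10 (−5.97 ± 0.24, adjusted p = 1.68e-21), and *LHCSR3B* had 0.342, 0.493 and 0.686 FPKM at −10, against 90.99, 84.3 and 83.7 FPKM at +10 (−5.86 ± 0.24). The 2 genes are near-identical and their values are not independent. *LHCSR1*, which acts in the same process, had 1.94, 1.82 and 1.83 FPKM at −10, against 38.04, 34.1 and 54.6 FPKM at +10 (−3.89 ± 0.30), and replicate 3 was the highest at +10. Every library at −10 had at most 1.94 FPKM of each *LHCSR* mRNA. *ZEP1*, the zeaxanthin epoxidase that closes the xanthophyll cycle, had 5.75, 8.12 and 6.25 FPKM at −10, against 98.9, 101 and 92.9 FPKM at +10 (−3.69 ± 0.10), and *ELIP3*, an early light-induced protein, had 0.557, 0.461 and 0.484 FPKM at −10, against 11.7, 10.9 and 12.02 FPKM at +10 (−3.07 ± 0.13). Outside the list, *MSF1*, annotated as an ELIP family factor that maintains photosystem I, had 2.37, 1.18 and 3.61 FPKM at −10, against 155, 156 and 143 FPKM at +10 (−5.56 ± 0.32). *PSBS1* did not pass the filter over the 45 libraries and was not tested, and it had at most 0.0374 FPKM in any of the 6 libraries.

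The largest decrease of any tested mRNA lay in the CCM. Of 41 tested mRNAs of inorganic carbon uptake and fixation, 25 were decreased and 7 were increased (median −1.67). *CCP2*, a low CO2-inducible membrane protein, had 0.843, 0.557 and 0.609 FPKM at −10, against 209, 231 and 214 FPKM at +10 (−7.04 ± 0.26, adjusted p = 3.18e-22), and *CCP1*, its close relative, had 2.45, 2.99 and 2.09 FPKM at −10, against 206, 213 and 176 FPKM at +10 (−5.83 ± 0.26). Transporters were among the decreases. *HLA3*, a bicarbonate transporter of the plasma membrane, had 6.42, 6.55 and 5.61 FPKM at −10, against 538, 489 and 473 FPKM at +10 (−6.12 ± 0.23), and *NAR1B*, an annotated formate and nitrite transporter, had 2.38, 2.35 and 1.74 FPKM at −10, against 209, 201 and 179 FPKM at +10 (−5.97 ± 0.29). *HLA3* had HL means of 20.2, 3614 and 2928 FPKM at −2, +2, and +6, so its level at +10 was already below that of midday. *BST1*, a thylakoid bestrophin channel, had 0.254, 0.298 and 0.209 FPKM at −10, against 60.6, 58.8 and 61.8 FPKM at +10 (−5.61 ± 0.12), and the low CO2-inducible *LCI23* had 1.34, 1.10 and 1.05 FPKM at −10, against 135, 132 and 122 FPKM at +10 (−5.92 ± 0.18). *LCIB1*, which recaptures leaked CO2 near the pyrenoid, had 9.65, 13.5 and 9.96 FPKM at −10, against 337, 343 and 345 FPKM at +10 (−4.85 ± 0.13). *LCR1*, the Myb regulator of the low CO2 response, had 3.66, 2.78 and 3.46 FPKM at −10, against 36.6, 37.9 and 33.6 FPKM at +10 (−3.11 ± 0.13). The mitochondrial carbonic anhydrase *CAH4* had 1.74, 2.01 and 1.44 FPKM at −10, against 20.5, 19.9 and 15.7 FPKM at +10 (−2.85 ± 0.27), and its HL mean at +2 was 2221 FPKM.

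The increased members of that list were 4 carbonic anhydrase genes and 3 *LCI* genes. *CAH7* rose the most, with 31.9, 25.7 and 25.2 FPKM at −10, against 4.01, 3.37 and 4.22 FPKM at +10 (2.55 ± 0.13), and *CAH2*, *CAH6*, and *CAH1* were at 2.002 ± 0.17, 1.78 ± 0.17, and 1.01 ± 0.32. The call for *CAH1* was lost without any 1 of the 6 libraries (0.94 to 1.05) and after scaling to the same FPKM sum (0.85). *CAH1* and *CAH2* encode periplasmic enzymes of near-identical sequence. The *LCI* genes were *LCI35* (2.38 ± 0.21), *LCI26* (1.70 ± 0.15), and *LCI30* (1.52 ± 0.08). Outside the list, *RHP1*, a Rhesus-type channel that responds to CO2, had 48.9, 46.00 and 47.1 FPKM at −10, against 19.3, 17.6 and 17.3 FPKM at +10 (1.34 ± 0.08).

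The mRNAs for using 2-carbon compounds rose together at dusk. Of 9 in the glyoxylate cycle and gluconeogenesis, 8 were increased and none was decreased (median 3.32), and their summed level was 8870.1 to 9955 FPKM at −10, against 823 to 895 FPKM at +10. *ICL1*, isocitrate lyase, which commits carbon to the glyoxylate cycle, had 3228, 3659 and 3301 FPKM at −10, against 156, 137 and 145 FPKM at +10 (4.53 ± 0.22, adjusted p = 3.90e-19). *PCK1*, phosphoenolpyruvate carboxykinase, which starts gluconeogenesis, had 1246, 1476 and 1273 FPKM at −10, against 57.5, 55.8 and 52.4 FPKM at +10 (4.56 ± 0.24). In both, replicate 2 was the highest at −10, and its excess was small beside the gap between the groups. Outside the list, *GFY4*, a putative acetate transporter, had 543, 650.4 and 550.2 FPKM at −10, against 10.4, 9.13 and 7.03 FPKM at +10 (5.90 ± 0.20). *UCP2C*, annotated as a mitochondrial uncoupling protein, had 345, 393 and 360.3 FPKM at −10, against 23.3, 21.5 and 22.95 FPKM at +10 (3.96 ± 0.23). The list member that was not called was the acetyl-CoA synthetase gene *ACS1* (−0.34 ± 0.09).

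Fermentation and hydrogenase mRNAs also rose, 13 of 19, with no decrease (median 1.59). *HYDA1* and *HYDA2* encode the iron hydrogenases. *HYDA2* had 116, 114 and 118 FPKM at −10, against 5.20, 4.54 and 4.61 FPKM at +10 (4.34 ± 0.15, adjusted p = 3.24e-23), and *HYDA1* had 58.3, 51.03 and 47.5 FPKM at −10, against 13.3, 12.4 and 12.7 FPKM at +10 (1.94 ± 0.16). *HCP4*, a hybrid-cluster protein, rose the most of the list, with 165, 144 and 146 FPKM at −10, against 2.88, 2.44 and 2.96 FPKM at +10 (5.35 ± 0.14). *PFL1*, pyruvate formate lyase, had a high level at both times, with 639, 550.4 and 536 FPKM at −10, against 197, 187 and 186 FPKM at +10 (1.59 ± 0.10).

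Starch genes had 8 increased and 4 decreased mRNAs of 30 (median 0.62). The increased share was above the 13.5% and the decreased share below the 22.8% of all tested mRNAs. Increases included breakdown and synthesis. *AMA1*, alpha-amylase, had 99.5, 98.4 and 95.2 FPKM at −10, against 11.5, 10.3 and 8.68 FPKM at +10 (3.15 ± 0.14, adjusted p = 6.66e-20), and *AMB1*, beta-amylase, had 72.1, 76.2 and 65.9 FPKM at −10, against 30.9, 32.00 and 29.5 FPKM at +10 (1.18 ± 0.09). *SSS2*, a soluble starch synthase, had 30.6, 31.7 and 24.7 FPKM at −10, against 6.75, 9.56 and 7.65 FPKM at +10 (1.74 ± 0.14). The decreased members were *SSS1B* (−2.60 ± 0.13), *SBE1* (−1.69 ± 0.16), *SBE4* (−1.53 ± 0.10), and *SSS5* (−1.52 ± 0.18), which are synthases and branching enzymes. Outside the list, *GBSS1A*, the granule-bound synthase that makes amylose, was among the largest decreases of all, with 2.35, 2.33 and 1.79 FPKM at −10, against 133, 128 and 130.2 FPKM at +10 (−5.38 ± 0.10). *GWD2*, a glucan water dikinase, was at 0.38 ± 0.11 and was not called. Of 8 mRNAs of triacylglycerol synthesis and lipid droplets, 3 acyltransferase genes were decreased, with *DGTT3* the lowest at −2.44 ± 0.14 beside *DGTT4* (−2.32 ± 0.13) and *DGTT2* (−2.27 ± 0.10), and *PDAT1*, which takes its acyl group from a phospholipid, was increased (1.42 ± 0.14). Plastid fatty acid synthesis had 4 decreases, *FAB2* (−2.21 ± 0.10), *MCT1* (−1.80 ± 0.12), *BCC3* (−1.66 ± 0.09), and *FAT1* (−1.59 ± 0.15), and 1 increase among 14, the acyl carrier gene *ACP2* (1.18 ± 0.16). These lipid counts also stand beside 22.8% decreased and 13.5% increased of all tested mRNAs.

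Most chloroplast ribosomal protein mRNAs rose, while few of the cytosolic and mitochondrial ones were called. Of 37 chloroplast ribosomal protein mRNAs, 31 were increased and none was decreased (median 1.28), with 34 called after median scaling and 22 after scaling to the same FPKM sum. *PSRP1*, a plastid-specific ribosomal protein, rose the most, with 238, 189.8 and 178 FPKM at −10, against 51.6, 50.2 and 47.1 FPKM at +10 (1.99 ± 0.17, adjusted p = 6.17e-13). Of 19 mRNAs listed under ribosome biogenesis, 11 were increased and 1 was decreased. The decreased one, *NON1* (−1.85 ± 0.11), is annotated as NO-nitrate 1, so its place in the list is uncertain. *NOP56*, a core protein of box C/D snoRNPs, had 275, 296 and 301 FPKM at −10, against 82.6, 75.8 and 75.7 FPKM at +10 (1.88 ± 0.12). The 74 cytosolic ribosomal protein mRNAs shifted together by less, with a median of 0.73 and a summed level of 173021 to 176060.0 FPKM at −10, against 103474 to 105339 FPKM at +10. *RPS27E2* (1.86 ± 0.22) and *RPS27A* (1.02 ± 0.05) passed the fold threshold as deposited, and 34 of the list did after median scaling. *RPS27A* lost its call without replicate 2 at +10 (0.99), after quantile normalization (0.56), and after scaling to the same FPKM sum (0.85). What the larger share of this list at −10 contributes to the values of other mRNAs was not tested. Mitochondrial ribosomal protein mRNAs changed little, with 7 decreases and 2 increases among 72. *MRPS34* fell the most (−2.17 ± 0.15), and *MRPL6* (1.41 ± 0.12) and *MRPL10* (1.27 ± 0.10) rose. Over all tested mRNAs, 13.5% were increased and 22.8% were decreased. Of 39 aminoacyl-tRNA synthetase mRNAs, 8 rose, with *TSQ1*, glutaminyl-tRNA synthetase, first (1.78 ± 0.09), and 4 fell. These were *TSF2*, phenylalanyl-tRNA synthetase (−2.10 ± 0.10), *TSC1* (−1.69 ± 0.18), *TSD2* (−1.59 ± 0.16), and *TSN1* (−1.28 ± 0.07).

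Of 29 proteasome mRNAs, 23 were decreased and none was increased (median −1.44), with 19 called after median scaling. *RPN8*, a subunit of the regulatory lid, had 15.9, 12.5 and 12.4 FPKM at −10, against 67.3, 69.9 and 68.9 FPKM at +10 (−2.26 ± 0.13). Of 42 chaperone mRNAs, 12 were decreased and 8 were increased, shares not far from the 22.8% and 13.5% of all tested mRNAs. *HSP90B* fell the most, with 0.751, 0.481 and 0.660 FPKM at −10, against 58.5, 56.7 and 50.9 FPKM at +10 (−5.11 ± 0.12, adjusted p = 5.93e-28), and the cytosolic chaperone *HSP70A* had 69.4, 79.1 and 82.2 FPKM at −10, against 227, 224 and 223 FPKM at +10 (−1.54 ± 0.12). *HSP90A*, also cytosolic, had 45.9, 45.4 and 43.8 FPKM at −10, against 158, 142 and 145 FPKM at +10 (−1.70 ± 0.12). In the other direction, *CPN60B2*, a chloroplast chaperonin subunit, had 188, 174 and 179 FPKM at −10, against 52.4, 44.03 and 48.4 FPKM at +10 (1.88 ± 0.12). Among 36 chloroplast protease mRNAs, whose shares of calls (22.2% decreased and 11.1% increased) were near the 22.8% and 13.5% of all tested mRNAs, 8 fell, the adaptor *CLPS2* the most (−2.58 ± 0.33), and 4 rose, *DEG9* (2.28 ± 0.14), *FTSHI1* (1.24 ± 0.09), *CLPX1* (1.09 ± 0.09), and *FTSHI4* (1.04 ± 0.09). *CLPX1* and *FTSHI4* were at 0.93 and 0.90, not called, after scaling to the same FPKM sum. In the respiratory chain, 6 of 91 mRNAs fell and 3 rose. *NUOAF4*, annotated with complex I, fell the most (−3.11 ± 0.11). The increases were *SDH1* (1.15 ± 0.11) and *SDH4* (1.01 ± 0.12) of succinate dehydrogenase and *ATP9B* of the ATP synthase (1.03 ± 0.12), and all 3 lost the call after scaling to the same FPKM sum (0.99, 0.85, and 0.87). Without replicate 2 at −10 or replicate 3 at +10, *SDH4* was at 0.96 and 0.999, and without replicate 2 at +10, *ATP9B* was at 0.93. Of 14 autophagy mRNAs, 3 rose and none fell. They were *ATG7*, which activates the ubiquitin-like ATG8 (1.77 ± 0.16), *ATG8* itself (1.23 ± 0.11), and *ATG9* (1.09 ± 0.18), which lost its call without replicate 3 at +10 (0.96) and after scaling to the same FPKM sum (0.97).

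Most genes of the cilia lists were higher at −10, mostly by less than the fold threshold. The tubulin mRNAs given above are not in these lists and were lower. Of 32 mRNAs of intraflagellar transport (IFT) and the BBSome, the trains and cargo adaptor that build the cilium, 9 were increased and 1 was decreased (median 0.70). The radial spokes and central pair had 8 increases of 22 (median 0.89), with every member above 0, and the axonemal dyneins had 1 increase and 1 decrease of 45 (median 0.51). *IFT172* had 58.5, 59.2 and 69.3 FPKM at −10, against 27.8, 27.5 and 30.2 FPKM at +10 (1.10 ± 0.15, adjusted p = 7.91e-08), and *IFT54* had 126, 122 and 153 FPKM at −10, against 39.1, 44.1 and 44.1 FPKM at +10 (1.63 ± 0.14), the largest change of its list. *RSP3*, which anchors the radial spoke to the doublet microtubule, had 39.02, 36.8 and 43.8 FPKM at −10, against 18.1, 18.03 and 19.6 FPKM at +10 (1.06 ± 0.14), and *RSP16* had 48.9, 51.1 and 62.9 FPKM at −10, against 17.5, 19.5 and 19.8 FPKM at +10 (1.47 ± 0.17). *MST1*, a mastigoneme protein on the ciliary surface, had 166, 179.6 and 185 FPKM at −10, against 66.99, 70.3 and 74.7 FPKM at +10 (1.31 ± 0.17). The dynein heavy chain *DHC1* was at 0.59 ± 0.12 and *FMG1A*, a glycoprotein of the ciliary membrane, at 0.37 ± 0.22, with overlapping libraries for *FMG1A*, and neither was called. These counts depended on scaling, and the increases in the IFT, dynein, spoke, and flagellar associated protein lists numbered 15, 10, 16, and 178 after median scaling, and 4, 0, 4, and 77 after scaling to the same FPKM sum. *IFT172* and *RSP3* fell below the threshold after the second of these scalings (0.94 and 0.91), and *RSP3* also without replicate 3 at −10 (0.99).

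The 348 flagellar associated protein (FAP) mRNAs, from genes named for proteins found in isolated cilia, held 107 increases and 20 decreases (median 0.76). *FAP137*, a hydroxyproline-rich member, rose the most, with 109, 93.3 and 92.4 FPKM at −10, against 4.29, 3.09 and 4.996 FPKM at +10 (4.29 ± 0.17), and *FAP414* fell the most, with 114, 72.5 and 122 FPKM at −10, against 1061, 1123 and 1058 FPKM at +10 (−3.41 ± 0.38). The decreased members of the dynein and IFT lists were *DLE2*, which encodes centrin, a protein also of basal bodies, with 305, 297 and 347 FPKM at −10, against 1214, 1348 and 1297 FPKM at +10 (−2.02 ± 0.15), and *BBS1* (−1.02 ± 0.11). The increased dynein member was *DLE3*, of the outer arm docking complex (1.01 ± 0.23). The values for *BBS1* and *DLE3* sat at the threshold. *BBS1* lost its call after median scaling (−0.76) and quantile normalization (−0.86), and *DLE3* after scaling to the same FPKM sum (0.84). *BBS1* also lost it without replicate 1 or 2 at −10 and without replicate 2 or 3 at +10, and *DLE3* without replicate 1 or 3 at −10 and without replicate 2 at +10, with a range over single omissions of −1.11 to −0.97 for *BBS1* and 0.97 to 1.04 for *DLE3*.

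Of 9 *ROC* genes of the circadian clock, 2 rose strongly and none fell. *ROC15* had 67.5, 65.2 and 64.8 FPKM at −10, against 0.542, 0.525 and 0.577 FPKM at +10 (5.43 ± 0.10, adjusted p = 1.64e-31), and *ROC40* had 33.99, 26.8 and 29.4 FPKM at −10, against 0.394, 0.253 and 0.378 FPKM at +10 (4.53 ± 0.10). The 3 libraries of each group were close to each other for these mRNAs. *ROC114* was at 0.28 ± 0.10 and was not called, and *ROC75* had at most 0.236 FPKM in any of the 6 libraries. Of 13 photoreceptor mRNAs, 2 rose and 1 fell, beside 13.5% and 22.8% of all tested mRNAs. *CHR1*, the channelrhodopsin of the eyespot, had 141, 154 and 156 FPKM at −10, against 19.4, 18.8 and 17.8 FPKM at +10 (2.94 ± 0.12), and *PCRY1*, the plant-type cryptochrome, was at 2.77 ± 0.08. *DCRY2* had 0.0230, 0 and 0 FPKM at −10, against 1.43, 0.961 and 0.793 FPKM at +10 (−1.02 ± 0.14), and this call was lost after median scaling (−0.76), after quantile normalization (−0.79), and without replicate 1 at +10 (−0.90).

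Genes of the cell wall and its release included large changes in both directions. Pherophorins are hydroxyproline-rich glycoproteins of the extracellular matrix. Of 62 tested mRNAs, 18 were increased and 20 decreased, beside 13.5% and 22.8% of all tested mRNAs. *PHC5* rose more than any other gene with a symbol, with 896, 944 and 826 FPKM at −10, against 6.43, 4.66 and 8.61 FPKM at +10 (6.91 ± 0.27, adjusted p = 1.44e-21). *Cre11.g483351*, a putative member, fell the most of the list, with 7.54, 5.08 and 10.9 FPKM at −10, against 125, 137 and 140.5 FPKM at +10 (−3.98 ± 0.37). Among 27 mRNAs of matrix metalloproteinases and lytic enzymes, 8 rose and 6 fell, and the share that fell was near the 22.8% of all tested mRNAs. *MMP13* had 70.6, 62.5 and 62.5 FPKM at −10, against 4.73, 3.42 and 5.62 FPKM at +10 (3.58 ± 0.16) and *MMP22* had 1.28, 1.25 and 1.61 FPKM at −10, against 46.6, 49.7 and 47.6 FPKM at +10 (−4.37 ± 0.22), so members of 1 enzyme family were high at opposite times. *VLE1*, sporangin, the enzyme that frees daughter cells from the mother wall, had 80.5, 66.99 and 82.6 FPKM at −10, against 109, 109 and 117 FPKM at +10 (−0.54 ± 0.16) and was not called.

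Antioxidant enzymes had 9 decreases and 2 increases among 23, beside 22.8% and 13.5% of all tested mRNAs. The increases were the catalase genes *CAT1*, with 293, 335 and 294 FPKM at −10, against 77.7, 69.2 and 75.9 FPKM at +10 (2.03 ± 0.14), and *CAT2* (1.15 ± 0.23). *GPX4*, a glutathione peroxidase, fell the most (−3.35 ± 0.20). Of 22 mRNAs of nitrogen uptake and assimilation, 8 rose and 3 fell, the former share above the 13.5% and the latter below the 22.8% of all tested mRNAs. *NRT2D*, annotated as a nitrate and nitrite transporter, had 19.2, 27.03 and 23.3 FPKM at −10, against 0.141, 0.276 and 0.158 FPKM at +10 (4.33 ± 0.16), and *AMT1A*, an ammonium transporter, had 2.45, 2.68 and 2.12 FPKM at −10, against 14.2, 17.8 and 16.9 FPKM at +10 (−2.34 ± 0.24), with *GSF1* (−2.03 ± 0.11) and *AMT1F* (−1.26 ± 0.10) as the other decreases. *AMT1F* was at −0.999 and not called after median scaling.

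The largest changes also included genes outside these lists. *SELW2*, a selenoprotein, had 83.5, 115 and 127 FPKM at −10, against 0.811, 0.795 and 0.914 FPKM at +10 (5.87 ± 0.37), and *CYB2*, a cytochrome b5 flavohemoprotein, had 147, 153 and 145 FPKM at −10, against 2.23, 2.19 and 1.44 FPKM at +10 (5.68 ± 0.35). *NSG1*, first known from nitrogen starvation and gametogenesis, fell, with 7.54, 7.41 and 11.6 FPKM at −10, against 619, 645 and 598 FPKM at +10 (−6.005 ± 0.35). Among genes without a symbol, *Cre12.g494550*, annotated as an RNA-binding protein, had 189, 142 and 161 FPKM at −10, against 1.66, 1.95 and 1.64 FPKM at +10 (5.90 ± 0.10, adjusted p = 2.68e-32), with libraries of each group close together. *Cre16.g801969* had 90.8, 170.5 and 101 FPKM at −10, against 1.37, 1.01 and 0 FPKM at +10 (6.12 ± 0.99), with 1 library at 0 and a wider error, and *Cre12.g533100* had 66.8, 71.4 and 71.5 FPKM at −10, against 0.623, 0.720 and 0.788 FPKM at +10 (5.37 ± 0.23). The largest decreases without a symbol were *Cre01.g016850*, with 2.09, 1.55 and 0 FPKM at −10, against 137, 145 and 179 FPKM at +10 (−6.27 ± 0.24), *Cre17.g802026* (−5.81 ± 0.15), and *Cre13.g563050* (−5.67 ± 0.25). The files give no function for these 3 or for *Cre16.g801969* and *Cre12.g533100*.

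Placed in the whole HL day, the mRNAs that changed at dusk did not all peak at −10 or +10. Of the 1964 increased mRNAs, 61.8% had their highest HL mean at −10, 24.9% at −2, which is 2 h before the light, and 11.8% at +2. Of the 3330 decreased mRNAs, 19.7% were highest at +2, 21.6% at +6, and 57.2% at +10. The calls were made on these same libraries, which all but excludes a peak at +10 for the increased and at −10 for the decreased mRNAs. The same shares over all tested mRNAs were not computed. The DNA replication list had a mean log2(FPKM + 1) of 1.17 ± 0.11 at −10, against 4.80 ± 0.01 at +10, its highest (SD, n = 3 libraries), and was at 1.27 ± 0.08 at −2. Chlorophyll and heme synthesis was at 3.45 ± 0.07 at −10, against 4.71 ± 0.09 at +10, and its highest mean was 7.23 ± 0.07 at +2, so most of its decline came before dusk. The radial spoke and central pair list had 5.10 ± 0.11 at −10, against 4.17 ± 0.06 at +10, and was lowest at +6 (2.22 ± 0.06), so these mRNAs stood above their midday level before dusk. The glyoxylate cycle and gluconeogenesis list summed to 6725 to 7640.1 FPKM at −2, sampled late in the night before. Its level after −10 was not sampled. The *ROC* list was at 128 to 141 FPKM at −10, against 28.3 to 29.4 FPKM at +10, and at 242 to 268 FPKM at −2.

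**Figure D3:**
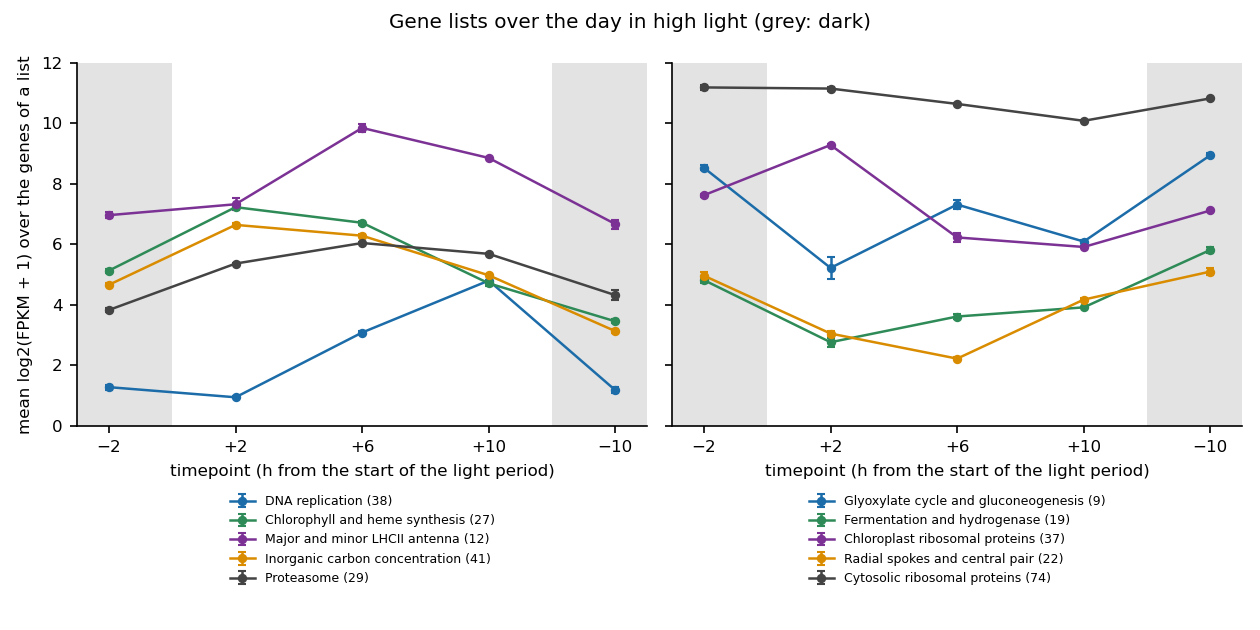
Mean log2(FPKM + 1) over the members of 10 gene lists at the 5 HL timepoints, in hours from the start of the light period and in the order of sampling, with −10 as the early night after +10 and the dark shaded. Points are means of 3 libraries and error bars 1 SD over libraries, and the number of genes is in parentheses. DNA replication peaks at +10 at 4.80 and the glyoxylate list is at 8.95 at −10, against 6.09 at +10.

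The same transition was sampled in ML and LL, in libraries that HL does not share. The log2 fold changes at dusk correlated across the 14602 mRNAs with r of 0.90 between HL and ML and 0.83 between HL and LL, as a description, since genes are not independent replicates. ML had 2490 increases and 3836 decreases (17.1% and 26.3% of those tested), and LL had 1421 and 2656 (9.73% and 18.2%). Of the HL increases, 79.6% were also increases in ML, which is 62.8% of the ML increases, and of the HL decreases 86.5% were shared, which is 75.1% of those in ML. For LL, 48.01% of the mRNAs increased and 64.8% of those decreased in HL were shared, which is 66.4% and 81.3% of the LL lists. A set of 903 mRNAs increased and 2062 decreased at all 3 intensities. Among the mRNAs called in HL, the median of the ratio of the ML to the HL log2 fold change was 1.04, and that of LL to HL was 0.64. In ML, 58.5% of the mRNAs increased in HL had their highest mean at −10, and 59.5% of those decreased had it at +10.

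The difference between the HL and ML changes was tested as an interaction. It was positive for 468 mRNAs (3.21% of those tested) and negative for 709 (4.86%), and without replicate 3 of ML for 256 and 413, of which 234 and 396 were among the 468 and 709. Most positive differences were decreases in ML that were smaller or not called in HL. Of the 468, 353 were called decreased in ML and 164 in HL. Of the 709 negative ones, 472 were called increased in ML and 167 in HL. Against LL, the difference was positive for 860 mRNAs (5.89%) and negative for 1032 (7.07%), and of these 1032 854 were called decreased in HL and 590 in LL. Without replicate 3 of LL, these counts were 727 and 608.

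**Figure D4:**
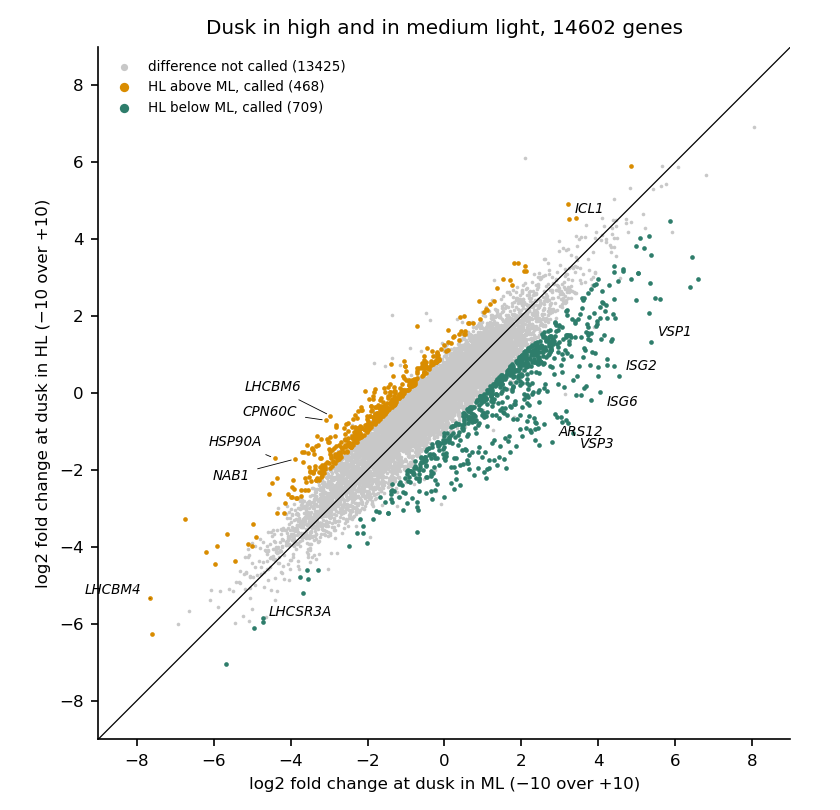
Log2 fold change at dusk (−10 over +10) in HL (vertical) and ML (horizontal) for the 14602 tested mRNAs, with the line of equal change. Orange points (468) have a significantly positive and green points (709) a significantly negative difference of HL minus ML, and the wall genes *VSP1*, *VSP3*, *ISG2*, and *ISG6* lie far below the line.

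Gene lists differed in where they departed from ML. Cilia increases were smaller in HL, with a negative difference for 17 of 22 spoke and central pair mRNAs (median −1.21), 17 of 32 of the IFT list (median −1.05), and 112 of 348 FAP mRNAs (median −0.79), against a median of 0.08 over all mRNAs. Without replicate 3 of ML, the counts were 9, 5, and 64 and the medians −0.93, −0.81, and −0.62. *RSP3* averaged 39.9 ± 3.57 FPKM in HL −10 and 18.6 ± 0.909 FPKM in HL +10, beside 44.1 ± 6.40 FPKM in ML −10 and 7.49 ± 1.96 FPKM in ML +10 (SD, n = 3 each), so the levels in the dark were close and the level before dusk was higher in HL. The proteasome decreased less in HL, with a positive difference for 21 of 29 mRNAs (median 1.16), and for 10 without replicate 3 of ML (median 0.92). Photosystem II subunits differed in the same direction for 7 of 8 and LHCII for 8 of 12, with 7 and 7 without that replicate. Photoprotection decreased more in HL, with a negative difference for 7 of 18 mRNAs with or without that replicate. Chaperones had 11 positive differences of 42 in both cases, and pherophorins 31 negative ones of 62, or 23 without the replicate.

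Among single genes with a symbol, the 5 largest positive differences from ML included 2 LHCII antenna genes, 2 chaperone genes, and *NAB1*, an RNA-binding repressor of LHCII translation. *HSP90A* was at −1.70 ± 0.12 in HL and −4.42 in ML, a difference of 2.72 ± 0.17 (SE, adjusted p = 3.04e-13). It had 11.7, 8.84 and 8.11 FPKM in ML −10, against 221, 199 and 249.5 FPKM in ML +10, so ML kept less than the 43.8 to 45.9 FPKM left in HL at −10. *LHCBM6* differed by 2.38 ± 0.21, *CPN60C* by 2.36 ± 0.19, *LHCBM4* by 2.32 ± 0.31, and *NAB1* by 2.16 ± 0.20. Without replicate 3 of ML, these differences were 2.54, 2.27, 2.50, 2.39, and 1.92 in the same order of genes, and all stayed called. *LHCBM4* reached 3.87, 2.11 and 4.15 FPKM in ML −10, against 868, 780.4 and 941 FPKM in ML +10, a higher evening level than the 181 ± 17.9 FPKM of HL +10.

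The 5 largest negative differences were 4 genes of hydroxyproline-rich wall proteins and an arylsulfatase. *VSP1* had 63.8, 60.8 and 60.7 FPKM at −10, against 26.9, 18.2 and 28.7 FPKM at +10 in HL (1.32 ± 0.32), and 95.9, 93.8 and 176 FPKM in ML −10, against 1.73, 3.66 and 0.753 FPKM in ML +10 (5.38), a difference of −4.06 ± 0.46 (SE, adjusted p = 4.03e-08). *ISG2* had 341, 342 and 313 FPKM at −10, against 262, 229 and 244 FPKM at +10 in HL, and 526, 515 and 895 FPKM in ML −10, against 34.5, 58.1 and 7.98 FPKM in ML +10, a difference of −4.11 ± 0.50. *ISG6* and *ARS12* differed by −4.02 ± 0.51 and −4.07 ± 0.55. The HL population thus held more of *VSP1* and *ISG2* at +10 than ML did. In ML, replicate 3 had the lowest evening level of *VSP1*, *ISG2*, *ISG6*, and *ARS12* and the highest level of them in the dark. Without it, the differences were −3.43, −3.07, −2.92, and −2.78, and all stayed called. *VSP3* had 7.71, 9.44 and 8.19 FPKM at −10, against 17.1, 13.3 and 27.1 FPKM at +10 in HL (−1.04 ± 0.38, adjusted p = 0.0132, not called), with a difference of −4.39 ± 0.53 from ML (−4.31 without replicate 3 of ML) and −4.41 ± 0.53 from LL. Without replicate 2 at +10, the HL decrease of *VSP3* was called (−1.26). *ARS12* was called decreased in HL (−1.27 ± 0.39), a call lost without replicate 2 at −10 (−1.18) and without replicate 1 or 3 at +10 (−1.25 and −1.27), after median scaling (−1.01), and with a pseudocount of 0.1 (−1.29).

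Against LL, *LHCSR3A* and *LHCSR3B* had 2 of the 3 largest negative differences, −5.29 ± 0.34 and −4.91 ± 0.34 (adjusted p = 3.27e-14 and 2.23e-13). *LHCSR3A* had 0.225, 0.267 and 0.410 FPKM in LL −10, against 1.21, 0.769 and 1.29 FPKM in LL +10, so LL had little of this mRNA to lose. The 3 largest positive differences were *PHC24* (4.71 ± 0.47), *GFY4* (4.57 ± 0.28), and *UCP2C* (4.22 ± 0.33). All 8 glyoxylate and gluconeogenesis mRNAs that increased in HL differed from LL, where no member of the list was called (median 0.23 over the whole list, *ACS1* included). *ICL1* had 1654, 1353 and 1123 FPKM in LL −10, against 987, 1125 and 1051 FPKM in LL +10 (0.37), a difference of 4.16 ± 0.31, and its evening level in LL was above that of HL. DNA replication fell less in LL, with a negative difference for 30 of 38 mRNAs (median −1.42, against −0.03 over all mRNAs), and for 15 without replicate 3 of LL (median −1.09). The carbon concentration list had a negative difference from LL for 18 of 41 mRNAs with or without that replicate. The clock list did not differ by a call in either comparison, with *ROC15* at 5.43 ± 0.10 in HL, 5.75 in ML, and 5.24 in LL, and differences of −0.32 ± 0.14 and 0.19 ± 0.14.

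**Figure D5:**
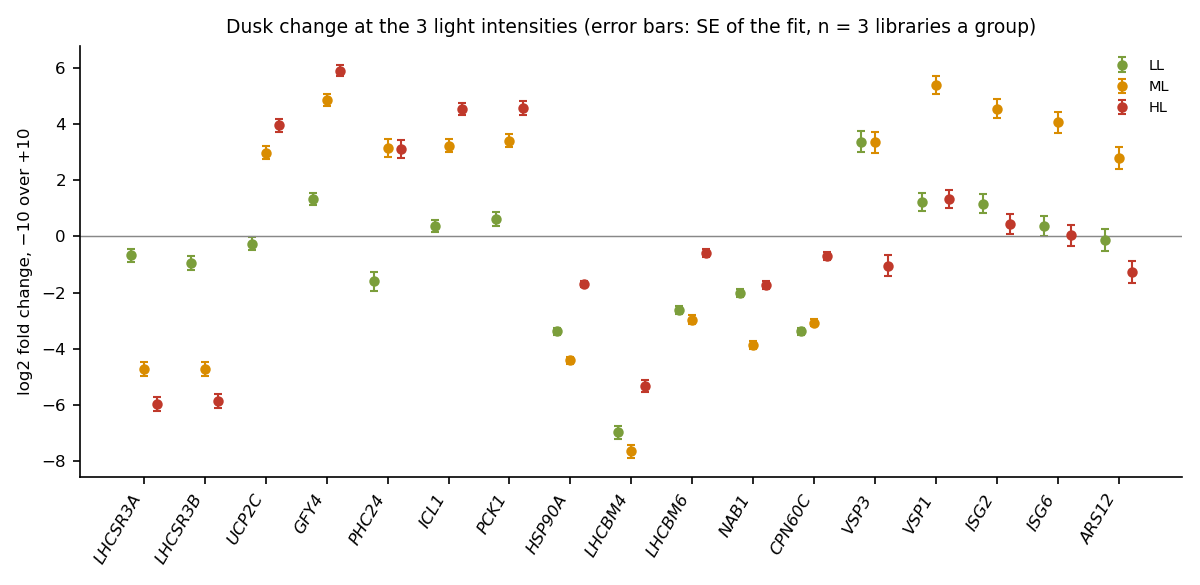
Log2 fold change at dusk (−10 over +10) in LL, ML, and HL for 17 mRNAs, most of them those with the largest differences between intensities. Points are fitted values and error bars 1 SE (n = 3 libraries a group), and *VSP1*, *ISG2*, and *ISG6* are highest in ML, while *GFY4*, *ICL1*, *PCK1*, and *UCP2C* run upward from LL to HL.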

How the data were processed

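Poly(A) RNA of 45 libraries was measured by RNA-seq. The deposited table holds FPKM values per gene and library, which the authors made with STAR (2.4.0j) and Cuffdiff (2.0.2) against the CC-4532 v6.1 genome (tools and versions from the submitters' processing notes), and a table of the authors' means, which was not used. Libraries were grouped by the labels. Relative depth was inferred from the most common ratio of low FPKM values between libraries. Genes that reached 1 FPKM in 3 or more libraries were tested on log2(FPKM + 1) with limma (3.58.1, R 4.3.3, trended empirical Bayes), in 1 model of the 15 groups, with Benjamini-Hochberg adjustment over all tested genes. The thresholds were those of the study's methods. The script was tested on simulated data. Gene symbols came from the deposited table, and 39 gene lists were assembled from symbols and descriptions.

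Named genes were 48 key genes, the 12 largest changes in each direction with a symbol and 3 without (higher group at 10 FPKM or more), the largest called change of each direction in each list, and the 5 (against ML) and 3 (against LL) largest interactions in each direction. Members of counts of 5 or fewer, the increased carbon concentration genes, *ACS1*, *TUB1*, *LHCA9*, and *RBCS1* were named after their values were seen. The lists, members, and key genes were chosen with earlier results of these data known. Alternatives were other pseudocounts, filters, scalings, fits, thresholds, and omitted replicates, and scaling to the same FPKM sum and the omission of ML or LL replicates were added after the data were seen.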

Additional observations from a re-analysis of the deposited data

Results flagged for a closer look

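The dusk changes of HL differed from those of the other light intensities by the interaction test for the following results. Against ML, 468 mRNAs had a significantly higher and 709 a significantly lower change in HL, and against LL these were 860 and 1032. Without replicate 3 of ML, which stood apart, 256 and 413 passed the threshold, of which 234 and 396 were shared. *HSP90A* differed from ML by 2.72 on the log2 scale, *LHCBM6* by 2.38, *CPN60C* by 2.36, *LHCBM4* by 2.32, and *NAB1* by 2.16. In the other direction were the wall genes *VSP3* (−4.39), *ISG2* (−4.11), *VSP1* (−4.06), and *ISG6* (−4.02), and the arylsulfatase gene *ARS12* (−4.07). Replicate 3 of ML had the extreme value at both times for *VSP1*, *ISG2*, *ISG6*, and *ARS12*, and its part in the size of these differences is given by the values without it, −3.43, −3.07, −2.92, and −2.78. Against LL, *PHC24* differed by 4.71, *GFY4* by 4.57, and *UCP2C* by 4.22, and *LHCSR3A* by −5.29, *LHCSR3B* by −4.91, and *VSP3* by −4.41. All 16 gene differences stayed past the threshold in every alternative run.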

How the results depend on the processing

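Of 190 results for named genes, 168 kept their direction and their side of the threshold in every one of up to 22 alternatives and none reversed. After median scaling, 2971 mRNAs were increased at dusk in HL, and with a mean FPKM of at least 5 required, 1951 were decreased. With a pseudocount of 0.1, 882 mRNAs changed significantly more positively in HL than in ML. Against LL, the negative differences numbered 644 with a mean FPKM of at least 5 and 1679 after scaling to the same FPKM sum. The stricter filter leaves fewer genes, and the cause of the other shifts was not tested. Leaving out single replicates gave 1940 to 1982 increases and 3301 to 3333 decreases in HL. The same omissions, with those of ML or LL replicates, gave 256 to 614 positive and 413 to 884 negative differences from ML, and 727 to 996 positive and 608 to 1233 negative differences from LL, with 413 and 256 both without replicate 3 of ML and 608 without replicate 3 of LL. Deviations of same-numbered replicates correlated weakly across genes (r of 0.034, −0.004, and 0.104), with replicate 3 the highest of all pairs. Replicate 2 did not correlate best with its own number. The main fit had no replicate term. With the replicate block, 1965 increases and 3332 decreases were called in HL, and among named genes only the call for *VSP3* changed. FPKM values carry no counts, so counting error could not be given, and low mRNAs are the least certain.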
